A study of Mus musculus with 12 samples.

Results

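Genes that build the fatty acids and sphingolipids of the myelin sheath were examined in optic nerves from a mouse model of NF1, neurofibromatosis type 1. They were the rows of the deposited count table named Acaca, Fasn, Elovl6, Elovl1, Scd1, Scd2, Cers2, Fa2h, Ugt8a and Gal3st1, 10 of the 35275 genes listed, and all 10 were among the 18344 genes with enough counts to be tested. Poly(A) RNA was sequenced from NF1 control mice that received PBS (phosphate-buffered saline; 6 libraries) and from NF1 mice treated with the DNA-damaging platinum agent carboplatin (3 libraries) or with selumetinib, which blocks the MEK kinases (3 libraries). Every group carried the NF1 designation, and no group without it was used here. The sources used here state neither the Nf1 allele nor any Cre driver, dose, schedule, age or sex. They also do not say that each library is a different mouse. The p-values thus reflect only how far these libraries spread, and that spread may be technical.

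Myelin is a membrane of unusual lipid content. Its fatty acids are made from acetyl-CoA by the carboxylase and synthase encoded by Acaca and Fasn, lengthened by the elongases and given a double bond by the stearoyl-CoA desaturases. Very long chains, in part hydroxylated by the product of Fa2h, are joined to a sphingoid base by ceramide synthase. The ceramide is given a galactose by the product of Ugt8a and, in part, a sulphate by the product of Gal3st1. The resulting galactosylceramide and sulfatide are known as hallmark lipids of the oligodendrocyte, the cell that makes myelin in the optic nerve.

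The libraries held 21793052 to 33375754 counts, and the lowest count of any of the 10 genes in any library was 764. Values are CPM, counts relative to the library total after scaling with TMM factors. Markers of mature oligodendrocytes (12 of 12 listed genes detected) took 2.15% of the counts of PBS 1, 3.16% of selumetinib 1 and 2.24% of selumetinib 2, against 5.20% to 8.48% of the other 9 libraries, and astrocyte markers took 0.319% to 1.47%. The labels call the material nerve cells, but the 5 listed neuron markers took 0.00109% to 0.149%. PBS 1 also held the highest share of skeletal muscle markers (4.26%, against at most 0.169% elsewhere), of Schwann cell markers (0.0537%, against at most 0.0185%) and of adipocyte markers (0.0406%, against at most 0.00224%). Results that rest on PBS 1, selumetinib 1 or selumetinib 2 are therefore given with and without them. In bulk tissue, fewer oligodendrocytes, less RNA per oligodendrocyte and a larger share of RNA from other tissue cannot be told apart. Y-linked genes were at 0 counts in PBS 1, carboplatin 1 and the 3 selumetinib libraries.

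Per length of merged exons, the desaturase Scd2 had the highest level of the 10 genes in PBS and Acaca the lowest. Scd2 lay at 239 to 970 CPM per kb (median 898) and Scd1 at 104 to 271 (median 245). Ugt8a (median 160) and Fa2h (median 146) followed, and their ranges, 38.8 to 177 and 39.7 to 163 CPM per kb, overlapped almost wholly. Cers2 had a median of 76.4, and Gal3st1 (38.5), Fasn (34.0) and Elovl1 (28.6) had overlapping ranges of 17.4 to 47.3, 16.3 to 39.5 and 20.2 to 32.2 CPM per kb. Elovl6 (median 15.2) and Acaca (median 8.92) closed the order. Within every PBS and selumetinib library Acaca was below Elovl6 on this per-length scale. In the 3 carboplatin libraries the order was turned, with Acaca at 22.6 to 36.2 and Elovl6 at 4.42 to 6.59 CPM per kb.

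**Figure D1:**
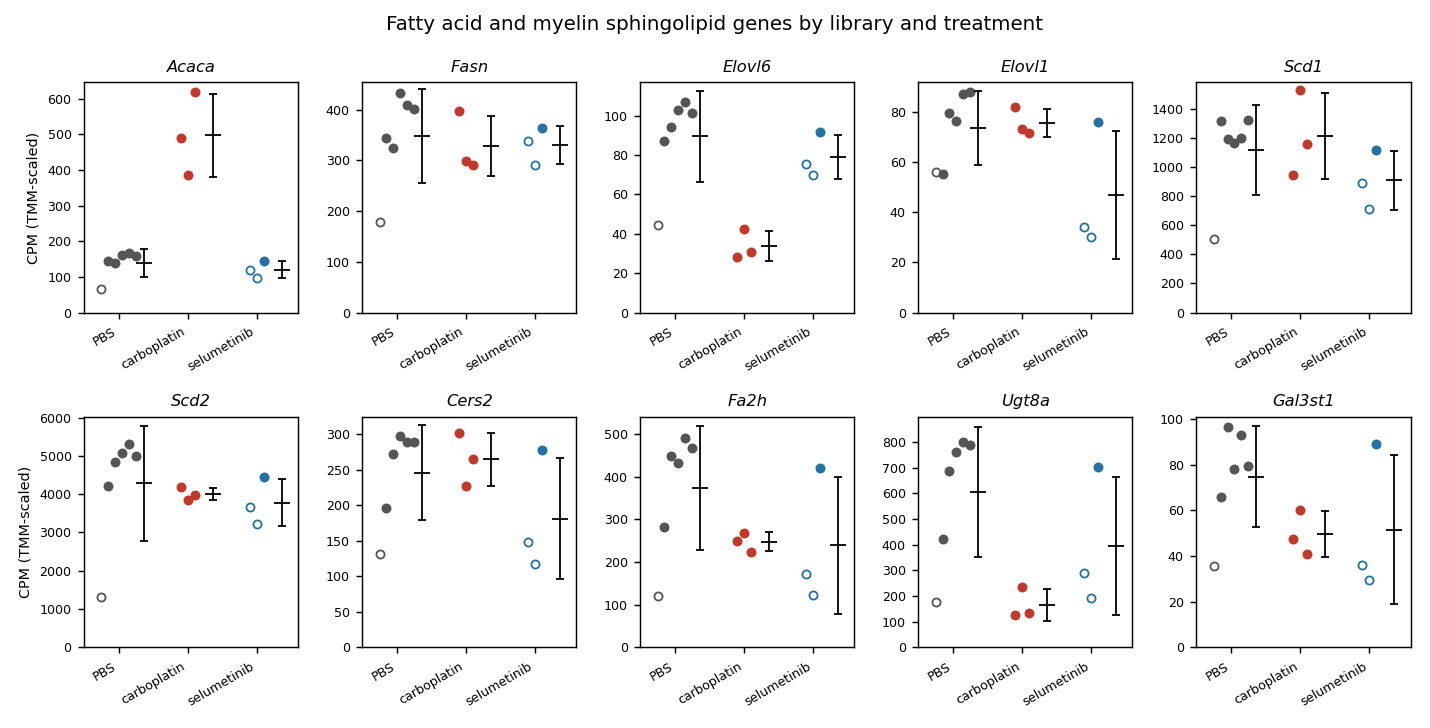
CPM (vertical axes, linear and from 0) of the 10 genes in each of the 12 libraries, 1 panel per gene. Points are libraries, open points are PBS 1, selumetinib 1 and selumetinib 2, and the bar beside each group is its mean with SD. Acaca lay at 385 to 618 CPM in carboplatin, above all other libraries, and Elovl6 at 28.4 to 42.4 CPM, below all others.

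The study's title concerns oligodendrocytes and the myelin sheath under carboplatin, and the first comparison set these lipid genes in carboplatin beside PBS. Acaca rose and Elovl6 fell, Ugt8a was lower in all carboplatin libraries than in PBS 2 to 6 without passing the test over all libraries, and the values of Fasn, Scd1, Scd2, Elovl1 and Cers2 in carboplatin overlapped those of PBS. Of the 10 genes 2 passed at an adjusted p of 0.05 in edgeR (quasi-likelihood F test, Benjamini-Hochberg) (1 higher, 1 lower), against 2.09% of all genes tested. The same 2 had groups that did not overlap in CPM, against 12.2% of all genes. The median log2 fold change of the 10 genes was -0.091, beside -0.11 for all genes tested.

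Acaca encodes acetyl-CoA carboxylase, which makes the malonyl-CoA that fatty acid synthase and the elongases add to a chain. It stood at 490, 385 and 618 CPM in carboplatin 1 to 3, and at 64.7, 146, 138, 161, 166 and 159 CPM in PBS 1 to 6. Every carboplatin library was above every PBS library, and PBS 1 was the lowest of all. The log2 fold change was 1.84 ± 0.27 (SE; 95% interval 1.26 to 2.42; edgeR adjusted p 0.00614), or 3.58-fold. Without PBS 1, selumetinib 1 and selumetinib 2 it was 1.67 ± 0.14 (adjusted p 0.000194). Of the fits that left out 1 library the call was lost only without carboplatin 3 (1.66, adjusted p 0.0506). The sample list places PBS 1 to 3 beside carboplatin and PBS 4 to 6 beside selumetinib, and no label calls either set a batch. All 10 genes were lower in PBS 1 to 3 than in PBS 4 to 6 (log2 -0.87 to -0.29), and by edgeR none of them and 1 of the 18344 genes passed. These values include PBS 1. Scd1 in PBS 2 and 3 (1314 and 1194 CPM) lay within the range of PBS 4 to 6 (1162 to 1324 CPM). Fasn in PBS 2 and 3 (344 and 323 CPM) lay below PBS 4 to 6 (400 to 432 CPM). So did Acaca (146 and 138 against 159 to 166 CPM) and Elovl6 (87.0 and 94.2 against 101.3 to 106.8 CPM). Ugt8a (424 and 688 against 763 to 802 CPM), Scd2 and Cers2 did as well. For Elovl1, Fa2h and Gal3st1 only PBS 2 lay below PBS 4 to 6. With PBS 1 to 3 as the only controls none of the 10 genes passed, against 0.0387% of all genes. Acaca was at 2.08 (edgeR adjusted p 0.115) and Elovl6 at -1.18 (adjusted p 0.297). With PBS 4 to 6 as the only controls 3 of the 10 genes passed, against 12.3% of all genes. Acaca was at 1.62 (edgeR adjusted p 0.00387), Elovl6 at -1.61 (adjusted p 0.00270) and Ugt8a at -2.24 (adjusted p 0.0202).

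Of the markers of other cell types, some passed the test between carboplatin and PBS. Photoreceptor markers (1 of 6 rose and 0 fell by edgeR) took 0.00690% to 0.144% of carboplatin, 0.00121% to 0.0149% of PBS and 0.00127% to 0.00147% of selumetinib. Pigment epithelium markers (0 of 6 passed) took 0.00774% to 0.136% of carboplatin, 0.00210% to 0.00786% of PBS and 0.00176% to 0.00244% of selumetinib. Both lists overlapped between carboplatin and PBS, and neither overlapped between carboplatin and selumetinib. Adipocyte markers (0 of 4 tested passed; Lep was at 0 in all libraries) took 0.000202% to 0.00224% of carboplatin and 2.12e-05% to 0.0406% of PBS. Astrocyte markers (1 of 8 rose and 0 fell, median log2 0.42) took 1.06% to 1.47% of carboplatin and 0.319% to 1.41% of PBS. All 5 red blood cell markers fell, from 0.0246% to 0.819% in PBS to 0.00124% to 0.00808% in carboplatin. The part of these cells in the difference was not tested.

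Fasn, the synthase that uses the malonyl-CoA, did not pass. It was at 396, 299 and 290 CPM in carboplatin and at 178 to 432 CPM (median 372) in PBS. All carboplatin values lay inside the PBS range, with a log2 fold change of -0.083 (95% interval -0.63 to 0.47, edgeR adjusted p 0.895). The interval of Fasn lay wholly below that of Acaca, and the difference between the 2 genes was not tested.

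Elovl6 encodes the elongase that carries palmitate to stearate, the step between Fasn and the desaturases. It was at 28.4, 42.4 and 30.6 CPM in carboplatin and at 44.3, 87.0, 94.2, 102.7, 106.8 and 101.3 CPM in PBS. All carboplatin libraries were below all PBS libraries, by a small margin for PBS 1 (44.3 against 42.4 CPM) and a wide one for PBS 2 to 6. The log2 fold change was -1.40 ± 0.27 (edgeR adjusted p 0.0236), and -1.57 ± 0.14 (adjusted p 0.000233) without PBS 1, selumetinib 1 and selumetinib 2. The call was lost without PBS 4, PBS 5, PBS 6, carboplatin 1 or carboplatin 3 (log2 -1.37 to -1.29, adjusted p 0.0573 to 0.150).

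Elovl1, the elongase of the very long chains used in myelin sphingolipids, gave 82.0, 73.2 and 71.5 CPM in carboplatin and 55.1 to 87.7 CPM (median 78.0) in PBS. The groups overlapped fully (log2 0.037, 95% interval -0.57 to 0.65, edgeR adjusted p 0.962). Within a library, the per-length log2 ratio of Elovl6 to Elovl1 was -2.77, -2.03 and -2.46 in carboplatin and -1.57 to -0.58 in PBS, and the groups did not overlap. The mean difference of the ratio was -1.43 (exact two-sided permutation p = 0.0119, the smallest that 84 groupings of 9 libraries allow; 0.0714 adjusted over the 18 relative values compared, which did not pass). Elovl1 (118428093 to 118432953 of chromosome 4, build GRCm38) overlaps the cell division gene Cdc20 on the opposite strand. Cdc20 was at 1.06 to 17.4 CPM. Reads in the bases that the 2 genes share cannot be told apart without the strand setting, which the sources used here do not state.

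The desaturases Scd1 and Scd2 put a double bond into stearate and palmitate, and Scd2 is the form known from brain. Scd1 was at 946, 1531 and 1160 CPM in carboplatin and at 507 to 1324 CPM (median 1199) in PBS (log2 0.12, 95% interval -0.53 to 0.76, edgeR adjusted p 0.870). Scd2 was at 4178, 3850 and 3973 CPM in carboplatin and at 1304 to 5301 CPM (median 4907) in PBS (log2 -0.099, 95% interval -0.89 to 0.69, edgeR adjusted p 0.917). Each carboplatin value of Scd2 was below PBS 2 to 6, which lay at 4216 to 5301 CPM, and above PBS 1. Without PBS 1, selumetinib 1 and selumetinib 2 the log2 fold change of Scd2 was -0.31 (edgeR adjusted p 0.130). The log2 ratio of Scd1 to Scd2 per length was below 0 in 12 of 12 libraries and did not differ between carboplatin and PBS beyond the spread (0.12, exact permutation p = 0.607).

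Among the sphingolipid genes the lowest carboplatin values relative to PBS were those of Ugt8a, whose product adds galactose to ceramide. Ugt8a stood at 126, 237 and 133 CPM in carboplatin and at 176, 424, 688, 763, 802 and 787 CPM in PBS 1 to 6. The carboplatin libraries were all below PBS 2 to 6, but carboplatin 2 was above PBS 1. The log2 fold change was -1.88 ± 0.55 (95% interval -3.08 to -0.67, edgeR adjusted p 0.110), which did not pass. Without PBS 1 alone it was -2.09 ± 0.43 (adjusted p 0.0148), and without PBS 1, selumetinib 1 and selumetinib 2 it was -2.09 ± 0.28 (adjusted p 0.00238). Only the fit without PBS 1, of those without 1 library, let Ugt8a pass. DESeq2 let it pass with all libraries (-1.88, adjusted p 0.00437).

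Fa2h, the fatty acid 2-hydroxylase, was at 250, 269 and 224 CPM in carboplatin and at 119, 283, 448, 432, 491 and 469 CPM in PBS 1 to 6. All carboplatin libraries lay below PBS 2 to 6 and above PBS 1, which gave a log2 fold change of -0.59 ± 0.46 (edgeR adjusted p 0.561) with all libraries and -0.80 ± 0.17 (adjusted p 0.0138) without PBS 1, selumetinib 1 and selumetinib 2. Gal3st1, the sulphotransferase that makes sulfatide, was at 47.6, 60.3 and 40.9 CPM in carboplatin and at 35.6, 65.8, 96.5, 78.0, 93.1 and 79.3 CPM in PBS. Its pattern matched that of Fa2h in that only PBS 1 was below the carboplatin libraries (-0.59 ± 0.38, adjusted p 0.472; -0.76 ± 0.15, adjusted p 0.0120 without the 3 libraries). Neither passed in the fit without PBS 1 alone (edgeR adjusted p 0.167 for Fa2h and 0.156 for Gal3st1).

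Cers2, the synthase of ceramides with very long chains, was at 302, 228 and 265 CPM in carboplatin and at 132 to 298 CPM (median 281) in PBS. The groups overlapped (log2 0.11, 95% interval -0.57 to 0.78, edgeR adjusted p 0.888). It lies opposite Setdb1 on chromosome 3 (95314791 to 95323599, build GRCm38), which was at 32.2 to 43.6 CPM. Without PBS 1, selumetinib 1 and selumetinib 2, 5 of the 10 genes passed (Acaca higher and Elovl6, Fa2h, Ugt8a and Gal3st1 lower), in a fit that called 15.9% of all genes.

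**Figure D2:**
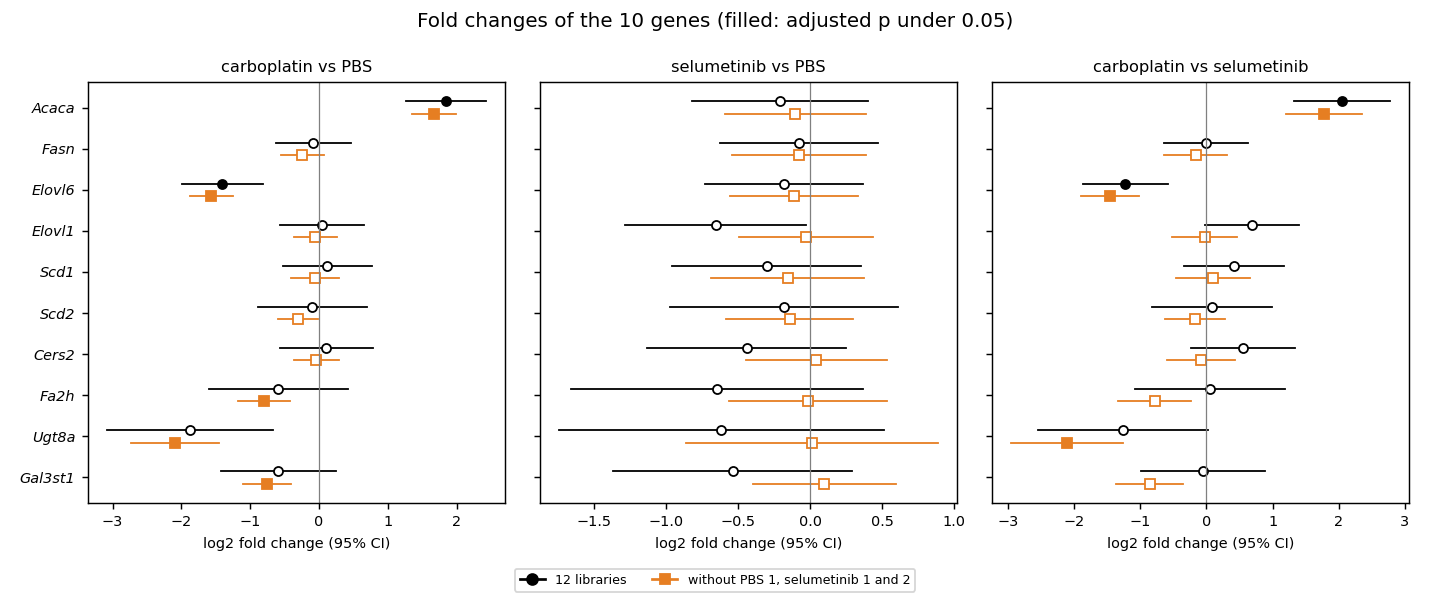
Log2 fold changes (horizontal axes) of the 10 genes in the 3 comparisons, with their 95% intervals, from all 12 libraries (black circles) and without PBS 1, selumetinib 1 and selumetinib 2 (orange squares). Filled symbols passed at an adjusted p of 0.05. Acaca (1.84) and Elovl6 (-1.40) passed in both fits against PBS, and Ugt8a, Fa2h and Gal3st1 only in the smaller one.

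Most of the 10 genes varied with the oligodendrocyte markers of the libraries. These correlations span all treatments and include the differences between them. Across the 12 libraries, which share tissue and scaling, the Pearson correlation of log2 CPM with the mean log2 CPM of the 12 mature oligodendrocyte markers was 0.97 for Fa2h, 0.95 for Gal3st1, 0.91 for Cers2, 0.86 for Elovl1, 0.82 for Scd1, 0.74 for Scd2, 0.69 for Ugt8a, 0.65 for Fasn, 0.38 for Elovl6 and 0.34 for Acaca. The sphingolipid genes Fa2h, Ugt8a, Gal3st1 and Cers2 were also set against that marker score within each library. Relative to the score Ugt8a was at -2.93, -2.31 and -2.78 (log2) in carboplatin and at -1.55 to -0.74 in PBS, and Gal3st1 at -4.33, -4.28 and -4.48 against -4.13 to -3.85. In both cases every carboplatin library was below every PBS library, PBS 1 included. The mean differences were -1.60 for Ugt8a and -0.37 for Gal3st1 (exact permutation p = 0.0119 for each, the smallest possible, and 0.0714 adjusted over the 18 relative values). For Fa2h the relative values overlapped (-0.28, exact permutation p = 0.0952), and for Cers2 they overlapped with the opposite sign (0.33, exact permutation p = 0.131).

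With the marker score as a covariate in the edgeR fit, 4 of the 10 genes passed, against 6.61% of all genes tested. They were Acaca (log2 1.99, adjusted p 0.000604), Elovl6 (-1.27, adjusted p 0.00183), Ugt8a (-1.54, adjusted p 0.000923) and Gal3st1 (-0.38, adjusted p 0.0331). Fa2h did not (-0.25, adjusted p 0.230). Of the 12 markers that make up the score 1 fell in carboplatin and 0 rose, with a median log2 fold change of -0.17, so the score itself is not free of the comparison.

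**Figure D3:**
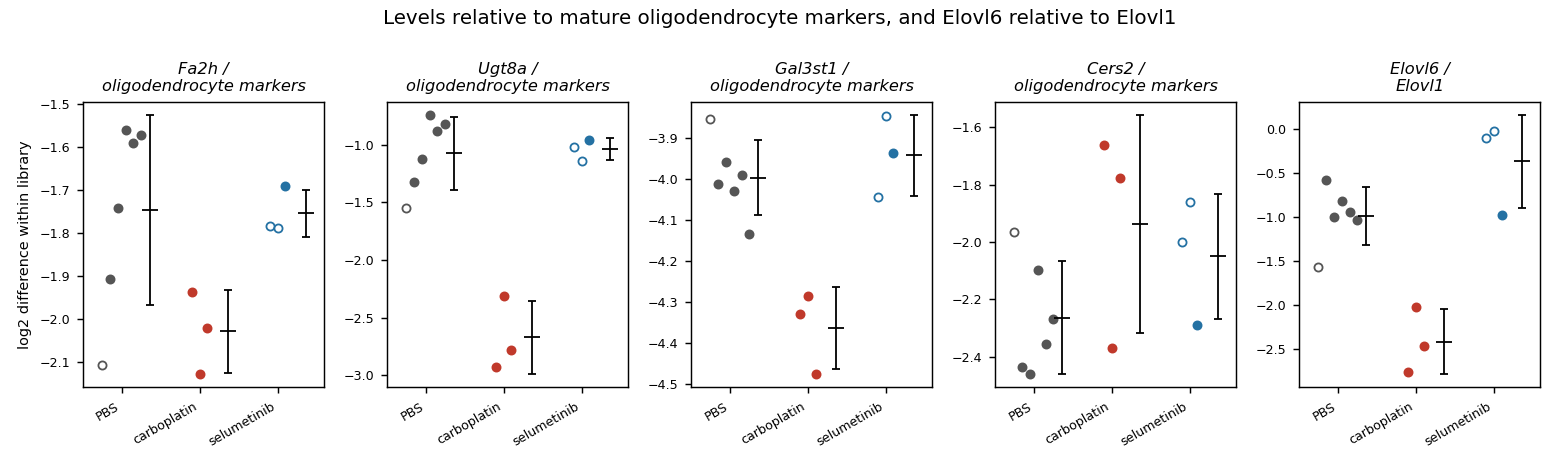
Log2 level of Fa2h, Ugt8a, Gal3st1 and Cers2 minus the mean log2 CPM of 12 mature oligodendrocyte markers, and the per-length log2 ratio of Elovl6 to Elovl1, in each library. Open points are PBS 1, selumetinib 1 and selumetinib 2, and bars are the group mean with SD. Carboplatin lay below all PBS libraries for Ugt8a (-2.93 to -2.31), Gal3st1 (-4.48 to -4.28) and the elongase ratio (-2.77 to -2.03).

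In selumetinib against PBS none of the 10 genes passed, and 0% of all genes did by edgeR, while 4410 of the 18344 genes, the elongase Elovl1 among them, had an unadjusted p under 0.05. DESeq2 called 0 of the 10 genes (13.1% of all genes), and limma voom with quality weights called 9, all lower (55.3% of all genes), the 10th being Fasn. The groups overlapped for each of the 10 genes, against 5.93% of all genes whose groups did not. The median log2 fold change of the 10 genes was -0.37, beside -0.088 for all genes.

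The selumetinib libraries did not form a group for the sphingolipid genes. Selumetinib 1 and 2, the libraries with few oligodendrocyte counts, had 291 and 194 CPM of Ugt8a, 172 and 123 CPM of Fa2h, 35.9 and 29.7 CPM of Gal3st1 and 148 and 117 CPM of Cers2. Selumetinib 3 had 702, 422, 88.9 and 279 CPM of these genes, inside the range of PBS 2 to 6. Elovl1 showed the same split, with 34.1, 30 and 76.1 CPM in selumetinib 1 to 3 (log2 -0.66 ± 0.29, edgeR adjusted p 0.194). Without selumetinib 3 Elovl1 (-1.17, edgeR adjusted p 0.00621) and Gal3st1 (-1.17, adjusted p 0.0409) passed, in a fit that called 21.6% of all genes. Without PBS 1, selumetinib 1 and selumetinib 2, where selumetinib 3 alone stood for its group and was assumed to vary like the others, Ugt8a was at 0.013, Fa2h at -0.016, Gal3st1 at 0.10, Elovl1 at -0.028 and Cers2 at 0.044 on the log2 scale, and 0% of all genes were called.

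Relative to the oligodendrocyte marker score, selumetinib and PBS overlapped. The mean differences were 0.036 for Ugt8a (exact permutation p = 0.881), -0.0079 for Fa2h (exact permutation p = 0.929), 0.054 for Gal3st1 (exact permutation p = 0.429) and 0.21 for Cers2 (exact permutation p = 0.190). With the score as a covariate 0 of the 10 genes and 0% of all genes passed by edgeR. Y-linked genes were at 0 in every selumetinib library and in 1 of 6 PBS libraries, so a difference tied to sex and one tied to selumetinib cannot be told apart in this contrast.

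The fatty acid genes spread less in selumetinib. Acaca was at 119, 98.2 and 144 CPM (log2 -0.21, 95% interval -0.82 to 0.40), Fasn at 337, 290 and 364 CPM (-0.074, interval -0.62 to 0.47) and Elovl6 at 75.2, 69.9 and 91.5 CPM (-0.18, interval -0.73 to 0.37). Scd1 was at 893, 710 and 1120 CPM (-0.30) and Scd2 at 3655, 3227 and 4445 CPM (-0.18). For all 5 genes selumetinib 2 was the lowest and selumetinib 3 the highest of the group. All 5 intervals include no change.

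Carboplatin was also compared with selumetinib directly, in which the carboplatin libraries are those of the comparison above. Of the 10 genes 2 passed (1 higher, 1 lower), against 14.0% of all genes. Acaca was higher in carboplatin (log2 2.05 ± 0.33, edgeR adjusted p 0.00908) and Elovl6 lower (-1.22 ± 0.29, adjusted p 0.0252), and each had groups that did not overlap, as did 41.7% of all genes. Markers of other cells also differed in this comparison. By edgeR 6 of 6 photoreceptor, 3 of 6 pigment epithelium, 1 of 8 astrocyte and 1 of 6 Schwann cell markers rose, and 3 of 5 red blood cell, 4 of 5 neuron and 1 of 12 mature oligodendrocyte markers fell. Their part in the differences of Acaca and Elovl6 was not tested. Of the 4 Y-linked genes 2 rose, and 2 of 3 carboplatin libraries and 0 of 3 selumetinib libraries held counts of them. With Y-linked expression as a covariate Acaca was at 1.64 (edgeR adjusted p 0.0165) and Elovl6 at -1.74 (adjusted p 0.00758). That covariate did not vary within selumetinib. Its slope rests on PBS 1 and carboplatin 1 against the other libraries of their groups. PBS 1 was also the library rich in muscle markers, so the covariate cannot separate sex from that library's other traits. The call of Acaca was lost without selumetinib 1 or 2 (adjusted p 0.0591 and 0.0610), and that of Elovl6 without any single carboplatin library or without selumetinib 1 or 2 (adjusted p 0.0569 to 0.09996). Ugt8a was at -1.26 ± 0.59 (adjusted p 0.166). Without PBS 1, selumetinib 1 and selumetinib 2, 3 of the 10 genes passed, against 2.67% of all genes, with Ugt8a at -2.104 (adjusted p 0.0261) beside Acaca and Elovl6. With the marker score as a covariate 4 passed, against 13.1% of all genes, with Ugt8a at -1.79 and Gal3st1 at -0.39. DESeq2 called 2 of the 10 (25.7% of all genes) and limma voom 7 (58.6%). For carboplatin against PBS these tools called 3 (8.58% of all genes) and 5 (29.6%).

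The wider pathway was read from lists of 97 genes in 8 groups, of which 94 were in the table and 92 were tested. In carboplatin against PBS, Acaca was the 1 of 9 genes of acetyl-CoA supply and fatty acid synthesis that rose, and Elovl6 the 1 of 8 elongation genes that fell. None passed among 8 desaturation, 14 sphingoid base and ceramide, 8 head group, 10 sphingolipid breakdown, 19 regulator and 16 fatty acid oxidation genes. The medians of the 8 lists ran from -0.27 (oxidation) to 0.36 (desaturation), beside -0.11 for all genes. Without PBS 1 the oxidation median was 0.28, and 5 of 16 oxidation genes rose and 0 fell. The desaturation median was then 0.18, and 2 of 8 desaturation genes rose and 1 fell. That fit called 10.7% of all genes. Srebf1, the sterol-responsive factor that drives fatty acid synthesis genes, was at 266 ± 37.6 CPM in carboplatin (SD, n = 3) and 170 ± 35.7 CPM in PBS (n = 6), a log2 fold change of 0.65 ± 0.19 that did not pass (edgeR adjusted p 0.107). Smpd2, a sphingomyelinase, had the smallest p of the breakdown list and did not pass (0.47 ± 0.11, adjusted p 0.0505). The smallest p of their lists, also without passing, were those of the desaturase family gene Fads6 (-0.51 ± 0.14, adjusted p 0.0923) and the nuclear receptor gene Ppard (0.69 ± 0.18, adjusted p 0.0822). For the ceramide list, Sptlc2, a subunit of the enzyme that starts sphingoid base synthesis, gave -0.44 ± 0.14 (adjusted p 0.135).

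**Figure D4:**
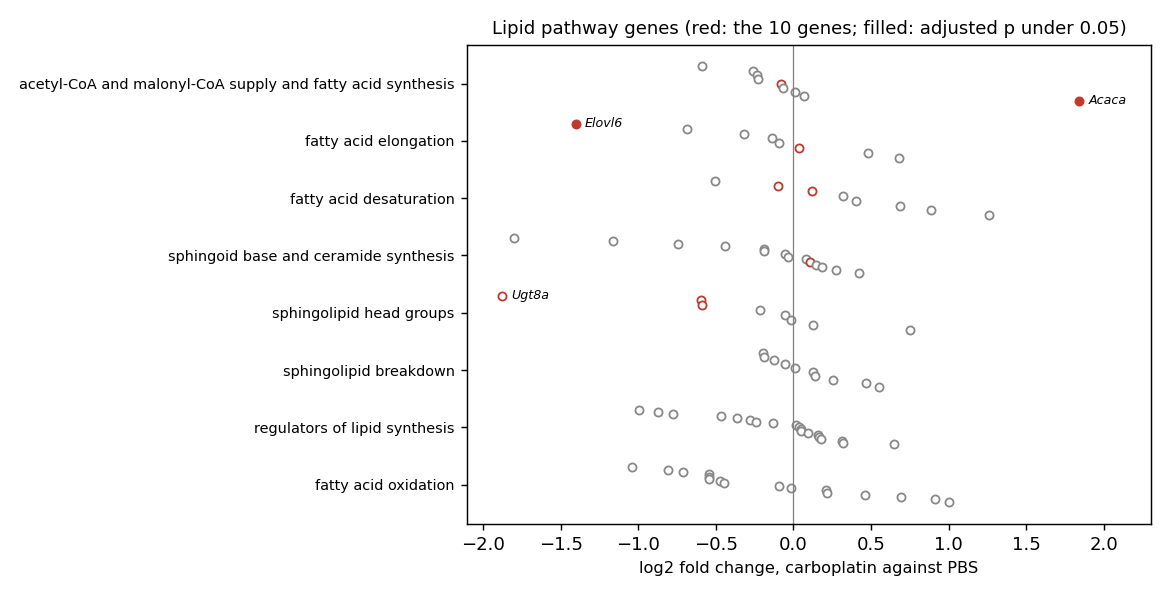
Log2 fold change in carboplatin against PBS (horizontal axis) of the 92 tested genes of 8 lipid lists (rows), with the 10 genes examined here in red. Filled points passed at an adjusted p of 0.05. Acaca (1.84) and Elovl6 (-1.40) are the only filled points, and Ugt8a (-1.88) is the lowest value.

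In selumetinib against PBS 0 genes of these lists passed by edgeR. Among the genes with the smallest p of their list were Degs2, which makes hydroxylated ceramide (1.08 ± 0.23, edgeR adjusted p 0.0884), B4galt6, which makes lactosylceramide (1.17 ± 0.30, adjusted p 0.0884), Cpt1c, a brain form of carnitine palmitoyltransferase (0.87 ± 0.27), the elongase Elovl4 (1.29 ± 0.41), Acss2 (-0.42 ± 0.16), Fads6 (-0.38 ± 0.14) and Nr1h2 (-0.46 ± 0.16). For each gene named, selumetinib 1 and 2 lay outside the PBS range. Selumetinib 3 lay inside it for all but Cpt1c (46.7 CPM, against 14.7 to 39.5 CPM in PBS). Degs2 was at 30.8, 33.8 and 14.5 CPM in selumetinib 1 to 3 and at 11.2 to 14.6 CPM in PBS. The 5 neuron markers took 0.125% and 0.149% of selumetinib 1 and 2 and at most 0.0336% of the other libraries. The part of these cells in the values was not tested. Carboplatin against selumetinib called 14.0% of all genes, and whether the lists differed from that share was not tested. Besides Acaca and Elovl6, 2 of 8 desaturation genes rose in that comparison (Scd3 by 1.64 and Fads3 by 1.06). Of the ceramide genes Sptssa rose (0.79) and Degs2 fell (-1.27), and of the breakdown genes Psap (0.64) and Smpd2 (0.47) rose. Of 19 regulators Srebf1 (0.76), the liver X receptor gene Nr1h2 (0.62) and Ormdl3, a brake on sphingoid base synthesis (0.49), rose, and of 16 oxidation genes Ppara (1.498) and Ppard (1.31) rose. Scd3 shares much of its sequence with Scd1 and Scd2, so its reads are uncertain. Without PBS 1, selumetinib 1 and selumetinib 2, where selumetinib 3 stood alone, 0 of the desaturation, ceramide, breakdown and regulator genes and 1 of 17 oxidation genes passed in this comparison.

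The 10 genes did not vary as 1 block. The correlations given here were taken over all treatments, so they include the differences between groups. Over the 12 libraries, which share tissue and scaling, the Pearson correlation of log2 CPM was 0.96 between Fa2h and Gal3st1, 0.92 between Fasn and Scd2, 0.92 between Elovl6 and Ugt8a and 0.91 between Elovl1 and Cers2. Over all libraries Acaca ran against Elovl6 (-0.61) and Ugt8a (-0.37). Within PBS these genes were all lowest in PBS 1 and highest in PBS 5. Within selumetinib they were all lowest in selumetinib 2 and highest in selumetinib 3. Within carboplatin, carboplatin 2 was the lowest for Acaca and the highest for Elovl6 and Ugt8a. Of all named genes tested, those most like Acaca were Tada2b (0.99), an adaptor of histone acetyltransferase complexes, Prodh (0.98), a proline dehydrogenase, and Fam21 (0.98). Gas7, Mtss1 and Adam1a were most like Elovl6 (0.96 to 0.98). Most like Ugt8a were Car2, the carbonic anhydrase of oligodendrocytes (0.99), Msmo1, an enzyme of cholesterol synthesis (0.98), and Enoph1 (0.98). Fa2h was closest to Plekhh1 (0.99), Arsg (0.99) and Aspa (0.99), one of the markers in the score, and Gal3st1 to Frmd8 (0.99) and the elongase Elovl7 (0.98). The tight junction gene Cldn11 (0.98), Tmem117 and Tnfaip6 (0.98 each) were the nearest to Cers2, and Lamp1 (0.99), Mal (0.98) and Heg1 (0.98) to Elovl1. Fasn was nearest to Dync1h1, Id2 and Ank2 (0.94 to 0.96), Scd1 to Acbd5, Myo6 and Apc (0.97 to 0.98), and Scd2 to Chst11, Zfp281 and Ildr2 (0.98 each).

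The promoter sequences of Fasn and Elovl6 are shown because both genes are known targets of the sterol-responsive factors, while only Elovl6 passed the test between carboplatin and PBS. RefSeq windows (build GRCm38.p6) were found for 7 of the 10 genes, and none for Scd1, Scd2 and Fa2h. The sequences give the 250 bases before the annotated start, 5′ to 3′ on the gene's strand, with matches to CCAAT on either strand in capitals. The Fasn stretch is chr11:120824548-120824797, minus strand, and the Elovl6 stretch is chr3:129532136-129532385, plus strand.
Fasn: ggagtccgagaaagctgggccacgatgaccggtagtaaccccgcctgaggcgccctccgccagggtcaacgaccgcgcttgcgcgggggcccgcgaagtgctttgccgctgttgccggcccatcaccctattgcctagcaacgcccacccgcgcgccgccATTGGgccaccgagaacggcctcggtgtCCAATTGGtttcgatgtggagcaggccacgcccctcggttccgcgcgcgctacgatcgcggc
Elovl6: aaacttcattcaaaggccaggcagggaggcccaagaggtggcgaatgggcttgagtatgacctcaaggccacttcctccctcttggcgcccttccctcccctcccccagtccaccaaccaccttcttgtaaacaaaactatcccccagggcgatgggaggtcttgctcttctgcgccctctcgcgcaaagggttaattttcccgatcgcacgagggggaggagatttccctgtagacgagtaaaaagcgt

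Fasn held 3 matches to CCAAT, at -90, -62 and -59 from the start, the last pair overlapping, and Elovl6 held 0, while 37.4% of the 32851 RefSeq windows, each of 300 bases with the 50 after the start included, held at least 1. Elovl1, Cers2 and Gal3st1 each held 1 match in at least 1 of their windows. The E-box CACGTG was found only in the window of Cers2 that starts at 95314940 of chromosome 3 (7.15% of all windows), and GGGCGG in windows of Elovl1, Cers2 and Ugt8a (35.7%). TCACNCCAC, a core of the sterol response element (1.24%), ACAAAG, a core bound by SOX factors (18.7%), and the glucocorticoid response element (0.475%) had 0 matches in the windows of the 7 genes that had one, the window inside Acaca included. The 1 window listed for Acaca starts its gene side at 84195438 of chromosome 11, which is 65766 bases inside the gene as GENCODE M21 places it (84129672 to 84401651, plus strand), so it is not printed, and counts per gene do not tell which of the gene's start sites was used.

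On build GRCm38, Elovl6 (ENSMUSG00000041220) spans 129532355 to 129638495 of chromosome 3 and Ugt8a (ENSMUSG00000032854) 125865271 to 125938619 of the same chromosome. Fa2h (ENSMUSG00000033579) spans 111345135 to 111393824 of chromosome 8, and Gal3st1 (ENSMUSG00000049721) 3983636 to 3999326 of chromosome 11. Fasn (ENSMUSG00000025153) lies at 120805846 to 120824547 of chromosome 11. Scd2 (44293674 to 44306864) and Scd1 (44394455 to 44407879) are neighbours on chromosome 19. Acaca (ENSMUSG00000020532) overlaps Gm11437 on the opposite strand, which was at 0 to 0.635 CPM.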

How the data were processed

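The deposited values are unnormalized read counts for 35275 genes, listed by Ensembl ID and symbol, in all 12 libraries. The tools named in the submitters' processing notes are HTSeq, STAR, Trimmomatic, FastQC and DESeq2, and the build is mm10. The sources used here give no tool version, annotation release or strand setting. Of the gene IDs 34490 matched GENCODE M21 (GRCm38, the same assembly as mm10), which gave coordinates and merged exon lengths.

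Groups came from the sample titles. Genes were kept with filterByExpr (minimum count 10, minimum total 15), scaled with TMM and tested with edgeR 4.0.16 in R 4.3.3, by a robust quasi-likelihood fit of 3 groups over 12 libraries, with Benjamini-Hochberg adjustment over all genes tested. The SE is the absolute log2 fold change divided by the square root of the F statistic, and the 95% interval uses it with the fit's degrees of freedom. Log2 CPM used a prior count of 2. Relative values were compared with exact two-sided permutation tests. The fit was checked on simulated counts with a dispersion below the common value of 0.272 in the data and no outlying library. That check therefore does not cover the spread seen here. Motifs were searched on both strands of the promoter windows. Alternatives were DESeq2 1.42.0, limma 3.58.1 (voom with quality weights), RLE factors, other filters, other library subsets, 2 covariates and a term for the replicate number.

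The genes examined, the lists and the alternatives were chosen with earlier results of these data known. Named genes were the 10 genes, the called genes of each pathway list (at most 5) or else its smallest p, and the 3 genes most correlated with each of the 10, leaving out predicted and clone symbols. Of the genes this rule names, 2 are not reported here.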

Additional observations from a re-analysis of the deposited data

Results flagged for a closer look

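Among the 6 PBS libraries, PBS 1 lay far below the others for 4 of the 10 genes. It held 64.7 CPM of Acaca, 44.3 CPM of Elovl6, 507 CPM of Scd1 and 1304 CPM of Scd2. Its gap to the next PBS library was 0.720, 0.684, 0.802 and 0.729 of the group's range, above Dixon's 95% critical value of 0.625 for 6 samples. About 1 in 20 groups exceeds that value by chance, and the 4 values come from 1 library, whose skeletal muscle markers took 4.26% of its counts. The part of that library's other tissue in these values was not tested.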

How the results depend on the processing

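The direction of Acaca and Elovl6 in carboplatin held under every alternative run against PBS and against selumetinib. The values below are those of reversed signs or moved counts, and the cause of each was not tested. With the replicate block, carboplatin against PBS gave 5 genes called, 0 of the 10 passing, Fasn 0.24, Scd2 0.34, Fa2h 0.025 (log2). Selumetinib against PBS then gave 2 genes called, Acaca 0.079, Fasn 0.24, Elovl6 0.13, Scd2 0.23 (log2). Carboplatin against selumetinib then gave 50 genes called, 0 of the 10 passing, Fasn 0.00029, Gal3st1 0.13 (log2). With the oligodendrocyte score as covariate, carboplatin against PBS gave 1213 genes called, 4 of the 10 passing, Fasn 0.036, Scd2 0.14 (log2). Selumetinib against PBS then gave Acaca 0.20, Fasn 0.28, Elovl6 0.26, Scd1 0.18, Scd2 0.48, Cers2 0.014, Fa2h 0.12, Ugt8a 0.25, Gal3st1 0.013 (log2). Carboplatin against selumetinib then gave 4 of the 10 passing, Scd2 -0.34, Fa2h -0.37 (log2). With Y-linked expression as covariate, carboplatin against PBS gave 628 genes called, Fasn 0.028, Scd2 0.20 (log2). Selumetinib against PBS then gave 2405 genes called, Acaca 0.38, Fasn 0.23, Elovl6 0.51, Scd1 0.51, Scd2 0.62, Fa2h 0.17, Ugt8a 0.56, Gal3st1 0.057 (log2). Carboplatin against selumetinib then gave 4212 genes called, Scd1 -0.19, Scd2 -0.42, Fa2h -0.47 (log2). Leaving out PBS 1, selumetinib 1 and selumetinib 2 together, carboplatin against PBS gave 3073 genes called, 5 of the 10 passing, Elovl1 -0.054, Scd1 -0.056, Cers2 -0.044 (log2). Selumetinib against PBS then gave Cers2 0.044, Ugt8a 0.013, Gal3st1 0.10 (log2). Carboplatin against selumetinib then gave 516 genes called, Elovl1 -0.026, Scd2 -0.17, Cers2 -0.089, Fa2h -0.78 (log2). With PBS 1 to 3 as the only controls, carboplatin against PBS gave 7 genes called, 0 of the 10 passing, Fasn 0.20, Scd2 0.19 (log2). Selumetinib against PBS then gave 3 genes called, Acaca 0.066, Fasn 0.24, Elovl6 0.084, Scd2 0.14 (log2). With PBS 4 to 6 as the only controls, carboplatin against PBS gave 2202 genes called, Elovl1 -0.14, Scd1 -0.015, Cers2 -0.13 (log2). With DESeq2, carboplatin against PBS 1574, selumetinib against PBS 2401, carboplatin against selumetinib 4714 genes were called. With limma voom, carboplatin against PBS gave 5423 genes called, 5 of the 10 passing, Elovl1 -0.077, Scd1 -0.12, Cers2 -0.018 (log2). Selumetinib against PBS then gave 10148 genes called, 9 of the 10 passing. Carboplatin against selumetinib then gave 10749 genes called, 7 of the 10 passing, Gal3st1 0.35 (log2). Without a filter, carboplatin against selumetinib gave Fasn 0.0092 (log2). Leaving out 1 library at a time gave, for carboplatin against PBS, genes called 73 (without carboplatin 3) to 1941 (without PBS 1), Elovl1 -0.048 to 0.10, Scd1 -0.077 to 0.27, Cers2 -0.038 to 0.21, calls among the 10 0 to 3, Fasn -0.24 to 0.0088. Leaving out 1 library at a time gave, for selumetinib against PBS, Fasn -0.21 to 0.024, genes called 0 to 4089 (without selumetinib 3), calls among the 10 0 to 2. Leaving out 1 library at a time gave, for carboplatin against selumetinib, genes called 134 (without selumetinib 1) to 5974 (without PBS 1), calls among the 10 0 to 3, Fasn -0.16 to 0.089, Fa2h -0.29 to 0.73, Gal3st1 -0.36 to 0.58, Scd2 -0.049 to 0.20. Whether the replicate numbers pair the samples cannot be decided from 3 libraries per group. For numbers 1 to 3, same-numbered libraries correlated at -0.12 to 0.38, and not each library correlated best with its own number. Between PBS and carboplatin 2 of 3 did so. Selumetinib was not set against PBS 4 to 6 in this check. The replicate block is given here only. Under it Acaca was at 2.12 and Elovl6 at -1.11 in carboplatin against PBS, and neither passed. With 3 libraries in each treated group and 1 PBS library apart, the spread between libraries and not the counts limits the precision.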
